A study of Mus musculus with 9 samples.

Results

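The genes described here were 7 markers of the adipose progenitor hierarchy, of the 54532 genes in the count table. They were chosen by gene name: Dpp4, Pi16, Cd55 and Anxa3 for interstitial progenitors, Icam1 and Clec11a for committed preadipocytes, and F3 for regulatory stroma. Expression was measured by bulk mRNA sequencing of cultured adipose-derived stem cells (ASCs) of mice, whose strain the study's methods give as C57/BL6. Sub-ASCs came from fat under the skin, Ab-ASCs from fat of the abdomen and PVASCs from fat around blood vessels, with 3 libraries each and 9 in all. All groups were grown in stem cell medium that, per the study's methods, held leukemia inhibitory factor and FGF, and were harvested at passages 3 to 6. The passage of each culture and the age of the mice are not given in the sources used here, and neither is whether the libraries of a group came from separate mice, so p-values measure only the spread between these libraries. Each depot was cultured as its own group, so depot and culture history cannot be told apart.

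In subcutaneous fat, DPP4+ cells of the interstitial connective tissue are regarded as early progenitors that give rise to ICAM1+ preadipocytes already committed to the adipocyte lineage. A further population carries F3, also named CD142 or tissue factor, and has been described as restraining fat formation by its neighbours. Clec11a, placed here with the committed preadipocytes, has also been used as a marker of the F3+ population. These states were defined in freshly isolated cells, whereas the present cells had been passaged in culture.

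All 7 genes passed the filter on low counts and were tested among 16526 genes. The markers did not move as a unit. Pi16 and Dpp4 were far higher in Sub-ASCs than in the other groups, Anxa3 and F3 were lower in Sub-ASCs, Cd55 and Icam1 were lowest in Ab-ASCs, and Clec11a was lowest in PVASCs. Within the interstitial progenitor group alone, the 4 genes took 3 different orders among the depots. Library totals were 20524173 to 29881036 reads. At this depth every member had at least 28 reads in every library, the lowest count being that of Clec11a in PVASC replicate 2. Replicates spread more in Ab-ASCs, with a common biological coefficient of variation of 12.3%, than in Sub-ASCs (5.69%) or PVASCs (3.86%), and Ab-ASC replicate 1 differed most from its fellow libraries.

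**Figure D1:**
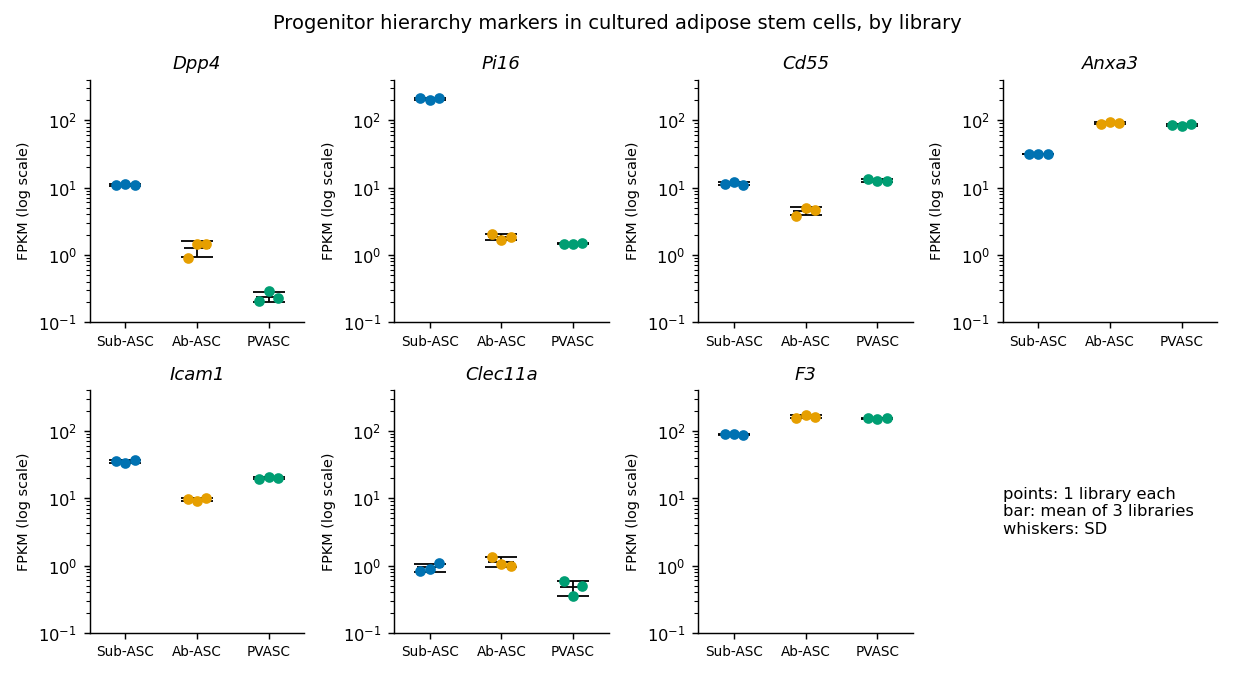
FPKM of each marker on a log axis, with 1 point per library, the mean as a bar and the SD as whiskers. Pi16 falls from 202 to 215 FPKM in Sub-ASCs to below 2.1 FPKM in both other groups, whereas Anxa3 and F3 are lowest in Sub-ASCs.

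The positions below are those of the count table, which match GRCm38 (98.1% of all genes had the start and end listed in GENCODE M21, including every marker but Pi16). Of the promoters, those of Cd55 and Clec11a, whose depot patterns were different again, are not shown. Pi16, Dpp4 and Icam1 were highest in Sub-ASCs, F3 was lowest there, and their promoters are shown as examples. Each is given 5′ to 3′ on the strand of the gene, from 250 bases before to 50 bases after the start listed by RefSeq on GRCm38.p6. The table of promoters matched 6 of the 7 markers, and Anxa3 was the one without an entry. Capitals mark matches on either strand to 5 motifs, in which N is any base. The TATA box was searched as TATAAA and the CCAAT box by the letters of its name. The GC box was searched as GGGCGG, the AP-1 element as TGANTCA and the STAT element as TTCNNNGAA. No matches overlapped in these windows.
Pi16, chr17:29318632-29318931, plus strand: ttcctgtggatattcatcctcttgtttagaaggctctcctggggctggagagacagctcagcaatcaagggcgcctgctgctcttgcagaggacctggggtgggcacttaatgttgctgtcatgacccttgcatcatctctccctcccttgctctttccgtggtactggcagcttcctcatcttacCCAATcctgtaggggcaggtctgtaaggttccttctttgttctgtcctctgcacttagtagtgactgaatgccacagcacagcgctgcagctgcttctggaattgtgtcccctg
Dpp4, chr2:62412182-62412481, minus strand: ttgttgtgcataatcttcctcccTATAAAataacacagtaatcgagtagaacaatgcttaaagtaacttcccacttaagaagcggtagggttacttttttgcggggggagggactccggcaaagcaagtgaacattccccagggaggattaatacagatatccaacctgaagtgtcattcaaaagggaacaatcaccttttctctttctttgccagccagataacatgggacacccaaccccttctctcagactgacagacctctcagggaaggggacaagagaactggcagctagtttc
Icam1, chr9:21015690-21015989, plus strand: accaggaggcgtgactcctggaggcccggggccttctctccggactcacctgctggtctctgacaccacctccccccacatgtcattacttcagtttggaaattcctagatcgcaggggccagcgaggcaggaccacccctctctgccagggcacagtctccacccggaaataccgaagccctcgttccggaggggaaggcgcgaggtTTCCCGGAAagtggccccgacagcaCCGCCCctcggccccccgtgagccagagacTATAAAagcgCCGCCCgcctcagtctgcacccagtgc
F3, chr3:121723287-121723586, plus strand: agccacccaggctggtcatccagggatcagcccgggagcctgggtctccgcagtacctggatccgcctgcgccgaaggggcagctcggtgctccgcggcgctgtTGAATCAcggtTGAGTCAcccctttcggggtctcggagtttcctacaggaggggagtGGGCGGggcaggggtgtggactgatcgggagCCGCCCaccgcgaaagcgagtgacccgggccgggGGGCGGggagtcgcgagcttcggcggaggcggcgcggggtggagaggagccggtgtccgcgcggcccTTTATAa

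The 4 windows differed in composition. GC content was 53.3% for Pi16 and 45.3% for Dpp4, against 64.7% for Icam1 and 70.3% for F3. The Pi16 window held 1 match, a CCAAT box that began 64 bases before the start, and the Dpp4 window held 1 match to TATAAA, 227 bases before it. The Icam1 window held a STAT element that began 42 bases before the start, 2 GC boxes, and a TATAAA that began 13 bases after the listed start. In the F3 window there were 3 GC boxes and 2 AP-1 elements, which began 146 and 135 bases before the start, and a TATA box on the reverse strand 43 bases after it. Of all 32851 promoters of this length, 13.6% held the TATA box, 37.4% the CCAAT box, 35.7% the GC box, 7.81% the AP-1 element and 8.30% the STAT element. These are matches of letters, and no binding was measured.

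Pi16 encodes a secreted protein of the CAP family and is a widely used marker of interstitial fibroblasts and progenitors. The gene (ENSMUSG00000024011) lies on the plus strand of chromosome 17, from 29318877 to 29329413. In Sub-ASCs 20067, 20941 and 23028 reads were counted on Pi16, in Ab-ASCs 166, 158 and 175, and in PVASCs 173, 157 and 171. Every Sub-ASC library was thus far above all others. Its level was 210 ± 6.50 FPKM in Sub-ASCs, 1.85 ± 0.175 FPKM in Ab-ASCs and 1.47 ± 0.0234 FPKM in PVASCs (SD, n = 3). FPKM here is the number of reads per kilobase of the listed gene length, scaled to a common library total. By mean FPKM, Pi16 ranked 208 among the tested genes in Sub-ASCs, 9767 in Ab-ASCs and 10999 in PVASCs. It was 108-fold lower in Ab-ASCs than in Sub-ASCs, with a log2 fold change of -6.76 (SE 0.08, edgeR quasi-likelihood test, adjusted p = 1.08e-14). In PVASCs it was 160-fold lower than in Sub-ASCs, with a log2 fold change of -7.32 (SE 0.08, edgeR adjusted p = 1.23e-14). The difference between PVASCs and Ab-ASCs was small beside these, at a log2 fold change of -0.56 (SE 0.09, edgeR adjusted p = 0.000176). With library totals not scaled by TMM it was -0.33 (edgeR adjusted p = 0.00285), and the FPKM ranges of the groups did not overlap.

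Dpp4 encodes dipeptidyl peptidase 4 (CD26), a cell surface protease used to isolate the interstitial progenitors. The gene occupies positions 62330073 to 62412231 of chromosome 2 on the minus strand (ENSMUSG00000035000). Its reads were 1617, 1861 and 1849 in Sub-ASCs, 115, 216 and 218 in Ab-ASCs, and 39, 49 and 41 in PVASCs. The groups did not overlap and stood in the order Sub-ASC, Ab-ASC, PVASC. Mean expression was 11.0 ± 0.309 FPKM in Sub-ASCs, 1.26 ± 0.324 FPKM in Ab-ASCs and 0.239 ± 0.0413 FPKM in PVASCs (SD, n = 3). Against Sub-ASCs it was 8.28-fold lower in Ab-ASCs (log2 fold change -3.05, SE 0.13, edgeR adjusted p = 4.16e-10) and 51.3-fold lower in PVASCs (log2 fold change -5.68, SE 0.16, edgeR adjusted p = 8.36e-12). Unlike Pi16, Dpp4 also differed widely between PVASCs and Ab-ASCs, where it was 6.20-fold lower in PVASCs (log2 fold change -2.63, SE 0.18, edgeR adjusted p = 1.91e-07). Ab-ASC replicate 1 had the lowest Dpp4 of its group, and without it the last value was -2.81. Both genes were highest in Sub-ASCs, but their proportion differed by depot. The ratio of Pi16 to Dpp4 in FPKM was 17.8 to 19.7 in the Sub-ASC libraries, 1.16 to 2.29 in Ab-ASCs and 5.08 to 7.03 in PVASCs.

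Cd55 encodes decay-accelerating factor, which protects cells from complement. The gene occupies positions 130439027 to 130462744 of chromosome 1 on the minus strand (ENSMUSG00000026399). In Sub-ASCs 1281, 1535 and 1431 reads were counted, in Ab-ASCs 378, 578 and 544, and in PVASCs 1954, 1671 and 1721. The Ab-ASC libraries were the lowest. Its level was 11.4 ± 0.668 FPKM in Sub-ASCs, 4.51 ± 0.646 FPKM in Ab-ASCs and 12.8 ± 0.582 FPKM in PVASCs (SD, n = 3). Cd55 was 2.41-fold lower in Ab-ASCs than in Sub-ASCs (log2 fold change -1.27, SE 0.09, edgeR adjusted p = 3.47e-08) and 2.43-fold higher in PVASCs than in Ab-ASCs (log2 fold change 1.28, SE 0.09, edgeR adjusted p = 1.23e-07). Between PVASCs and Sub-ASCs no difference was detected. The log2 fold change was 0.01 with a 95% confidence interval of -0.17 to 0.19 (edgeR adjusted p = 0.916), an interval that leaves out changes the size of those of Pi16 or Dpp4. With unscaled totals the value was 0.17 (edgeR adjusted p = 0.111), and the FPKM ranges of the groups did not overlap while those of TMM-scaled CPM did. Reads from Cd55b, the neighbouring paralogue on chromosome 1, could be mistaken for those of Cd55. Cd55b had 3 reads in PVASC replicate 2 and none in the other libraries. Its counts do not show whether reads matching both genes were left out.

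Anxa3, the last interstitial progenitor marker, encodes a calcium-dependent phospholipid-binding annexin. It lies on the plus strand of chromosome 5, from 96793339 to 96845966 (ENSMUSG00000029484). Reads were 2768, 2932 and 3087 in Sub-ASCs, 6493, 8184 and 7982 in Ab-ASCs, and 9363, 8218 and 9167 in PVASCs. Here the Sub-ASC libraries were the lowest, the reverse of Pi16 and Dpp4. Mean expression was 31.5 ± 0.470 FPKM in Sub-ASCs, 91.3 ± 4.18 FPKM in Ab-ASCs and 85.6 ± 2.24 FPKM in PVASCs (SD, n = 3). Against Sub-ASCs, Anxa3 was 3.04-fold higher in Ab-ASCs (log2 fold change 1.60, SE 0.05, edgeR adjusted p = 1.16e-11) and 2.43-fold higher in PVASCs (log2 fold change 1.28, SE 0.05, edgeR adjusted p = 8.70e-11). PVASCs were below Ab-ASCs by a log2 fold change of -0.32 (SE 0.05, edgeR adjusted p = 9.49e-05). This last difference was called with TMM, edgeR's scaling of the library totals, and with RLE size factors (log2 fold change -0.30), but not with unscaled totals. The FPKM, which use unscaled totals, overlapped between PVASCs (83.1 to 87.5) and Ab-ASCs (86.8 to 95.1), and with unscaled totals the log2 fold change was -0.09 (edgeR adjusted p = 0.107). Unscaled totals moved the median of all genes by 0.23 on the log2 scale in this comparison, by 0.16 for PVASCs against Sub-ASCs and by -0.07 for Ab-ASCs against Sub-ASCs.

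**Figure D2:**
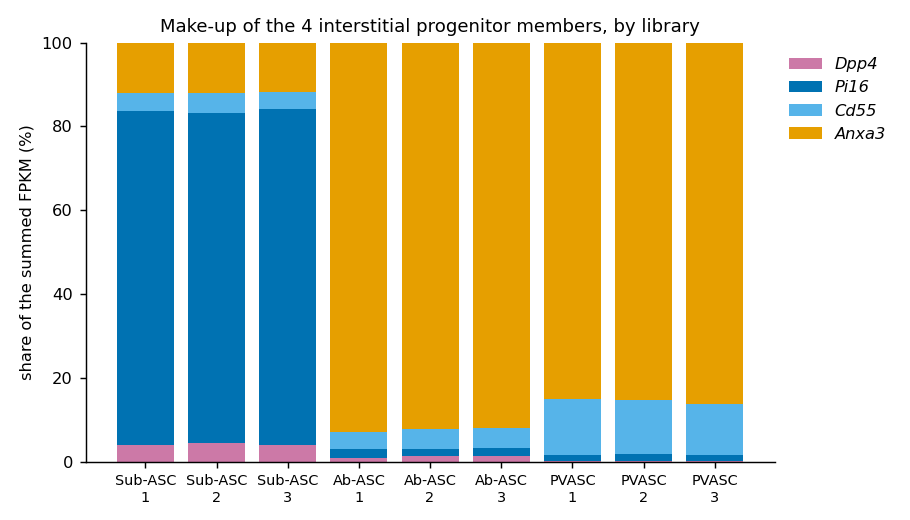
Share of the summed FPKM of the 4 interstitial progenitor markers that each gene takes in each library, as stacked bars from 0 to 100%. Pi16 makes up 78.8 to 80.1% in the Sub-ASC libraries, and Anxa3 makes up 92.0 to 92.8% in Ab-ASCs and 85.0 to 86.2% in PVASCs.

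The make-up of the interstitial group differed between depots. Its summed level was 264 ± 5.92 FPKM in Sub-ASCs, 98.9 ± 4.96 FPKM in Ab-ASCs and 100.1 ± 2.22 FPKM in PVASCs (SD, n = 3). Pi16 took 79.5% ± 0.687 of this sum in Sub-ASCs, 1.88% ± 0.274 in Ab-ASCs and 1.46% ± 0.0262 in PVASCs. Anxa3 took 12.0% ± 0.175, 92.3% ± 0.453 and 85.5% ± 0.607 in the same order. The share of Cd55 was 12.8% ± 0.610 in PVASCs but 4.34% ± 0.354 in Sub-ASCs and 4.55% ± 0.435 in Ab-ASCs. Most of the sum was thus Pi16 in Sub-ASCs and Anxa3 in the other groups.

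Icam1 encodes an adhesion molecule that binds leukocyte integrins and is the surface marker of committed preadipocytes. It is also known to be induced by interferon-γ and by NF-κB. Icam1 lies on the plus strand of chromosome 9, from 21015985 to 21028817 (ENSMUSG00000037405). Reads were 3679, 3819 and 4307 in Sub-ASCs, 881, 926 and 1036 in Ab-ASCs, and 2512, 2480 and 2507 in PVASCs. The 3 groups were apart, with PVASCs in between. The level was 35.3 ± 1.51 FPKM in Sub-ASCs, 9.60 ± 0.531 FPKM in Ab-ASCs and 20.1 ± 0.842 FPKM in PVASCs (SD, n = 3). Relative to Sub-ASCs, Icam1 was 3.51-fold lower in Ab-ASCs (log2 fold change -1.81, SE 0.07, edgeR adjusted p = 1.22e-10) and 1.96-fold lower in PVASCs (log2 fold change -0.97, SE 0.07, edgeR adjusted p = 3.52e-08). It was 1.79-fold higher in PVASCs than in Ab-ASCs (log2 fold change 0.84, SE 0.07, edgeR adjusted p = 6.80e-07). Interferon response genes were also highest in Sub-ASCs. The summed level of 12 such genes was 3438 to 3535 CPM in Sub-ASCs, 150 to 174 CPM in Ab-ASCs and 157 to 161 CPM in PVASCs, and all 12 were lower in both of these groups than in Sub-ASCs. The 7 NF-κB feedback genes summed to 455 to 458 CPM in Sub-ASCs, 498 to 526 CPM in Ab-ASCs and 270 to 273 CPM in PVASCs. The part of either in the Icam1 differences was not tested.

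Clec11a encodes a secreted growth factor with a C-type lectin domain that promotes bone formation. The gene occupies positions 44302687 to 44306902 of chromosome 7 on the minus strand (ENSMUSG00000004473), and was the marker with the fewest reads. They were 59, 69 and 87 in Sub-ASCs, 82, 75 and 71 in Ab-ASCs, and 52, 28 and 43 in PVASCs. PVASCs were lowest, whereas Sub-ASCs and Ab-ASCs overlapped. Expression was 0.938 ± 0.133 FPKM in Sub-ASCs, 1.14 ± 0.181 FPKM in Ab-ASCs and 0.478 ± 0.121 FPKM in PVASCs (SD, n = 3). Clec11a was 2.18-fold lower in PVASCs than in Sub-ASCs (log2 fold change -1.12, SE 0.22, edgeR adjusted p = 0.000530) and 2.75-fold lower than in Ab-ASCs (log2 fold change -1.46, SE 0.22, edgeR adjusted p = 0.000123). Ab-ASCs and Sub-ASCs were not shown to differ (log2 fold change 0.33, 95% confidence interval -0.10 to 0.77, edgeR adjusted p = 0.146). Against Ab-ASCs, PVASCs had less Clec11a but more Icam1, the other committed preadipocyte marker.

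F3 encodes tissue factor, which starts coagulation and marks the regulatory stroma. It lies on the plus strand of chromosome 3, from 121723537 to 121735048 (ENSMUSG00000028128). In Sub-ASCs 5346, 6001 and 5942 reads were counted, in Ab-ASCs 8086, 10285 and 9856, and in PVASCs 11843, 10422 and 11435. All libraries of Ab-ASCs and PVASCs lay above those of Sub-ASCs. The level was 89.3 ± 2.03 FPKM in Sub-ASCs, 164 ± 8.23 FPKM in Ab-ASCs and 155 ± 2.99 FPKM in PVASCs (SD, n = 3). Against Sub-ASCs, F3 was 1.92-fold higher in Ab-ASCs (log2 fold change 0.94, SE 0.05, edgeR adjusted p = 1.35e-09) and 1.56-fold higher in PVASCs (log2 fold change 0.64, SE 0.05, edgeR adjusted p = 5.96e-08). PVASCs were below Ab-ASCs by a log2 fold change of -0.30 (SE 0.05, edgeR adjusted p = 0.000134). As for Anxa3, this small difference was lost with unscaled totals (log2 fold change -0.08, edgeR adjusted p = 0.180), and the FPKM ranges of the 2 groups overlapped. F3 was the most abundant of the 7 markers per length in Ab-ASCs and PVASCs and second to Pi16 in Sub-ASCs. The ratio of Icam1 to F3 in FPKM was 0.369 to 0.420 in Sub-ASC libraries, 0.0522 to 0.0631 in Ab-ASCs and 0.123 to 0.138 in PVASCs.

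Read across the members, the order by level also changed with the depot. In Sub-ASCs it was Pi16, F3, Icam1, Anxa3, Cd55, Dpp4 and Clec11a by mean FPKM, and the ranges over libraries overlapped only for Cd55 (11.0 to 12.2) and Dpp4 (10.8 to 11.3). In Ab-ASCs the order was F3, Anxa3, Icam1, Cd55, Pi16, Dpp4 and Clec11a. There Dpp4 (0.887 to 1.45) and Clec11a (1.00 to 1.34) overlapped. PVASCs had the order F3, Anxa3, Icam1, Cd55, Pi16, Clec11a and Dpp4, with no overlap between neighbours.

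**Figure D3:**
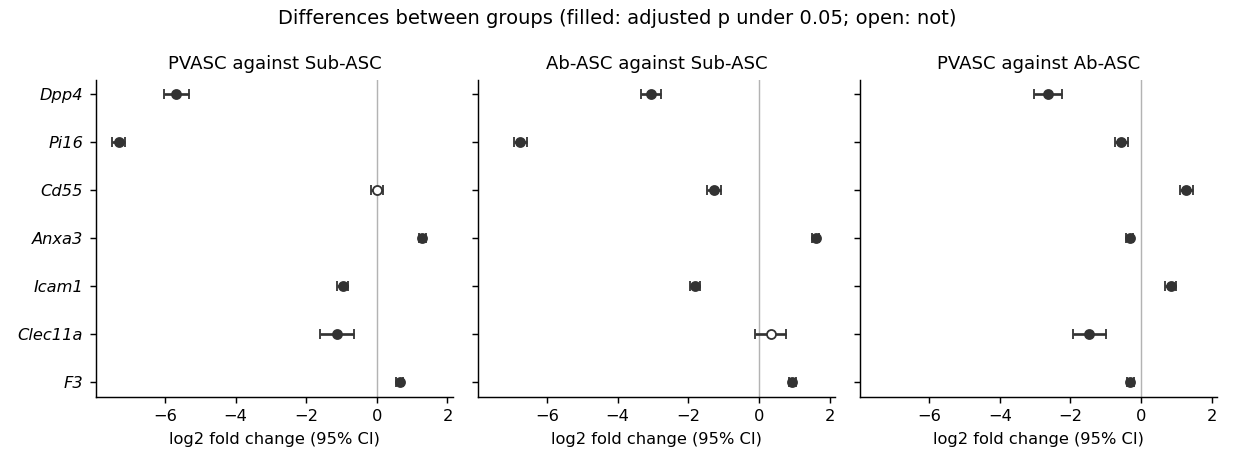
Log2 fold change of each marker in the 3 comparisons, with 95% confidence intervals from edgeR. Filled points had an adjusted p below 0.05, and the open points are Cd55 for PVASCs against Sub-ASCs and Clec11a for Ab-ASCs against Sub-ASCs.

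Counted over the list, 6 of the 7 markers differed between PVASCs and Sub-ASCs, with Anxa3 and F3 higher and Pi16, Dpp4, Icam1 and Clec11a lower in PVASCs. In this comparison 70.4% of all tested genes were called (34.7% higher and 35.7% lower), so the count itself is near the background. The 6 called in Ab-ASCs against Sub-ASCs were Anxa3 and F3, which were higher, and Pi16, Dpp4, Cd55 and Icam1, which were lower, where 75.3% of all genes were called (37% higher and 38.3% lower). Both comparisons share the Sub-ASC libraries. Between PVASCs and Ab-ASCs all 7 were called, with Cd55 and Icam1 higher and the other 5 lower in PVASCs, against 56.9% of all genes (24.7% higher and 32.1% lower). With unscaled totals, 5 markers were called there, Anxa3 and F3 being lost. Changes that were called and also at least 2-fold were found for 4 markers in PVASCs against Sub-ASCs (32.2% of all genes), 5 in Ab-ASCs against Sub-ASCs (37.8%) and 3 in PVASCs against Ab-ASCs (15.4%). Over all tested genes, unscaled totals turned the split of PVASCs against Ab-ASCs from 4088 higher and 5308 lower to 6291 and 2680, and that of PVASCs against Sub-ASCs from 5735 and 5893 to 6897 and 4766.

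The sizes of the changes set the markers further apart than their number. Among 16526 genes ranked by absolute log2 fold change, Pi16 stood at 189 and Dpp4 at 428 for PVASCs against Sub-ASCs, whereas Anxa3 stood at 4309 and F3 at 7772. Relative to Sub-ASCs, the 4 interstitial markers had a median log2 fold change of -2.84 for PVASCs and -2.16 for Ab-ASCs, beside -0.01 and -0.03 over all genes tested. These medians lie between members of opposite direction. For the 2 committed preadipocyte markers the medians were -1.05 and -0.74. The ranges of TMM-scaled CPM did not overlap between groups for 6 of 7 markers in PVASCs against Sub-ASCs, 6 of 7 in Ab-ASCs against Sub-ASCs and 7 of 7 in PVASCs against Ab-ASCs, where 77.3%, 76.5% and 63.9% of all genes did not.

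Further genes associated with the same 3 states were examined from lists. For interstitial progenitors, these were Sema3c, Wnt2, Bmp7, Dact2, Opcml, Smpd3, Ly6c1, Fn1 and Creb5. Of these 9 genes, 3 were higher and 6 lower in PVASCs than in Sub-ASCs, 3 were higher and 6 lower in Ab-ASCs than in Sub-ASCs, and 3 were higher and 5 lower in PVASCs than in Ab-ASCs. The medians of their log2 fold changes were -2.78, -1.80 and -0.55, against medians of -0.01, -0.03 and -0.06 over all genes. Ly6c1, a surface antigen of the Ly6 family, was at 1207 ± 12.9 CPM in Sub-ASCs, 0.988 ± 0.355 CPM in Ab-ASCs and 13.7 ± 0.842 CPM in PVASCs (SD, n = 3), so that it was higher in PVASCs than in Ab-ASCs (log2 fold change 3.80, edgeR adjusted p = 9.02e-10), unlike Pi16 and Dpp4. Wnt2, a secreted Wnt ligand, was highest in Ab-ASCs at 23.8 ± 3.78 CPM, against 3.78 ± 0.652 CPM in PVASCs and 0.549 ± 0.0527 CPM in Sub-ASCs (SD, n = 3). Bmp7, a bone morphogenetic protein, had 22 to 31 reads in Sub-ASC libraries, 4 to 8 in Ab-ASCs and at most 1 in PVASCs, and no fold is given. Fibronectin, encoded by Fn1, had the depot order of Anxa3 and was at 3534 ± 73.3 CPM in Sub-ASCs, 14792 ± 508 CPM in Ab-ASCs and 10125 ± 326 CPM in PVASCs (SD, n = 3). It was named outside the rule, after its values were seen.

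Of the 10 further committed preadipocyte genes (Dlk1, Pparg, Fabp4, Cd36, Lpl, Col4a1, Col4a2, Col15a1, Sparcl1 and Aoc3), 4 were higher and 6 lower in each comparison. Those lower in both PVASCs and Ab-ASCs than in Sub-ASCs were Pparg, Fabp4, Cd36, Lpl, Sparcl1 and Aoc3, and the 3 collagen genes and Dlk1 were higher. Lipoprotein lipase, encoded by Lpl, was at 3816 ± 157 CPM in Sub-ASCs, 381 ± 50.1 CPM in Ab-ASCs and 109 ± 1.35 CPM in PVASCs (SD, n = 3). Dlk1, the preadipocyte factor that keeps preadipocytes from differentiating, had the opposite order, with 0.467 ± 0.00829 CPM, 3.76 ± 0.0950 CPM and 25.6 ± 2.13 CPM. Sparcl1, a secreted matrix protein of the SPARC family, fell by 3.53 on the log2 scale in Ab-ASCs against Sub-ASCs (edgeR adjusted p = 1.15e-11). Aoc3, a surface amine oxidase, fell by 2.07 in PVASCs against Ab-ASCs (edgeR adjusted p = 7.71e-11). The medians of the list were -1.12 for PVASCs and -1.23 for Ab-ASCs against Sub-ASCs, and -0.25 for PVASCs against Ab-ASCs.

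The regulatory stroma list (Fmo2, Abcg1, Mgp, Gdf10, Vit, Meox2, Rspo2, Cpe and Bgn) was also divided. In PVASCs against Sub-ASCs 4 genes were higher and 4 lower, and in Ab-ASCs against Sub-ASCs 4 were higher and 5 lower. PVASCs exceeded Ab-ASCs in 7 of the 9 genes, and 1 was lower. Medians were 0.06, -3.12 and 1.25 in the same order. Mgp, the matrix inhibitor of calcification, was at 1.17 ± 0.0125 CPM in Sub-ASCs, 104 ± 12.5 CPM in Ab-ASCs and 656 ± 17.9 CPM in PVASCs (SD, n = 3). Gdf10 (BMP3b), a secreted factor of the TGF-β superfamily, was highest in Sub-ASCs at 119 ± 3.04 CPM, with 0.496 ± 0.188 CPM in Ab-ASCs and 0.583 ± 0.164 CPM in PVASCs. Fmo2, a flavin-containing monooxygenase, was likewise highest in Sub-ASCs at 161 ± 10.2 CPM, and it was lowest in Ab-ASCs at 1.67 ± 0.251 CPM. Rspo2, a potentiator of Wnt signalling, had 75 to 95 reads in Sub-ASC libraries, 99 to 117 in PVASCs and 1 to 6 in Ab-ASCs.

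**Figure D4:**
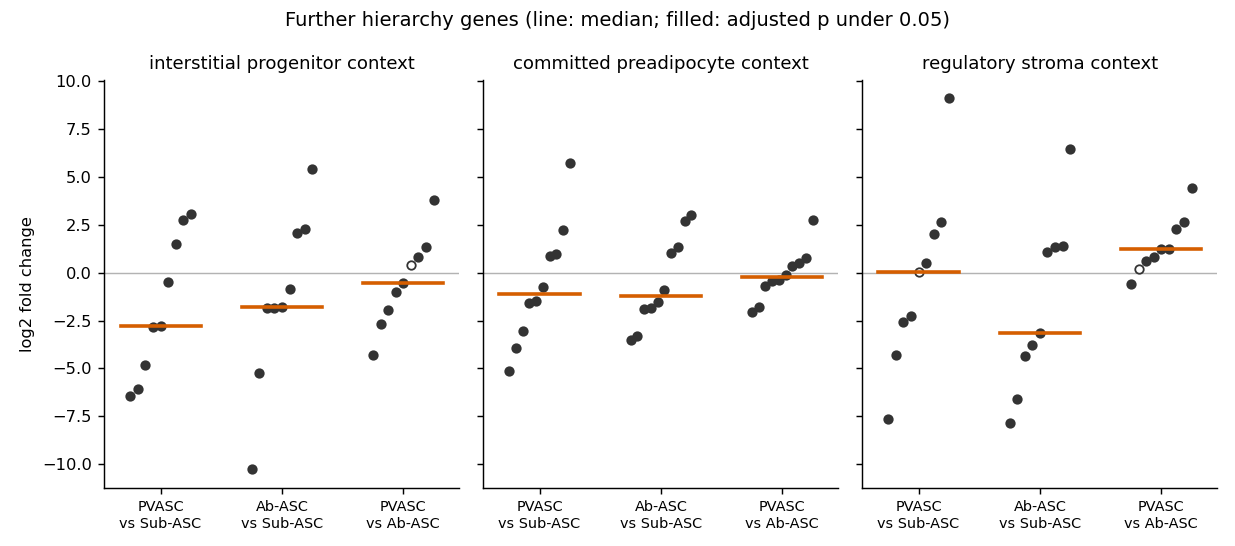
Log2 fold change of each further hierarchy gene in the 3 comparisons, by list, with the median as a line, filled points for an adjusted p below 0.05 and open points for the others. Genes of each list lie on both sides of 0 in all 3 comparisons.

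For each marker, the protein-coding genes with the most similar profile were found from the root mean square difference of centred log2 CPM over the 9 libraries, among 13874 genes. For Pi16 these were Adamts15 (0.142), Psmb9 (0.222) and CR974586.3 (0.245), which like Pi16 were far higher in Sub-ASCs. Dpp4 was most like Susd2 (0.242), Arsi (0.279) and Lpl (0.342), the last of which is also in the committed preadipocyte list. The nearest to Cd55 were Dock4 (0.0797) and Zfp748 (0.0873), and to Anxa3 Idh3a (0.0409), Hspd1 (0.0483) and Kctd15 (0.05). Icam1 was closest to Trp53i11 (0.0666) and St3gal1 (0.0727). Clec11a was nearest to Ccdc88b (0.173), Slc43a1 (0.180) and Relb (0.194), and F3 to Rassf8 (0.0341), Rab21 (0.0422) and Timm9 (0.0433). Distances were larger for markers with few reads or wide changes, and the 9 points of each profile fall into 3 groups. No marker was among the 3 nearest genes of another.

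The labelled cell type was checked with general progenitor markers. Pdgfra was at 2709 ± 84.0 CPM in Sub-ASCs, 443 ± 4.50 CPM in Ab-ASCs and 332 ± 3.49 CPM in PVASCs (SD, n = 3). Pdgfrb differed less, at 603 ± 9.32, 538 ± 23.6 and 429 ± 7.12 CPM in the same order. The study found PVASCs positive for Sca1, CD90 and CD105. Against Sub-ASCs, Ly6a (Sca1) was lower in PVASCs (log2 fold change -4.20), whereas Thy1 (CD90, 1.41) and Eng (CD105, 1.60) were higher. All 11 genes of the list had reads in every group. Their sum was 28120 to 28910 CPM in Sub-ASCs, 9866 to 9969 CPM in Ab-ASCs and 7677 to 7898 CPM in PVASCs. In each of these 2 comparisons with Sub-ASCs, 8 of the 11 were lower and 3 higher, but not the same genes. Thy1 was higher in PVASCs but lower in Ab-ASCs (log2 fold change -0.53), and Col1a1 was lower in PVASCs (-0.41) but higher in Ab-ASCs (0.58). Of the 11 genes, PVASCs were higher than Ab-ASCs in 4 and lower in 6, a split that unscaled totals turned to 6 and 5. In bulk libraries, fewer cells of a type and less RNA per cell cannot be told apart. Of the mature adipocyte markers, Adipoq had 22 reads or fewer in every library and Lep had none, whereas Plin1 had 410 to 523 reads in Sub-ASC libraries. Their sum was 19.5 to 22.2 CPM in Sub-ASCs, 0.0892 to 0.222 CPM in Ab-ASCs and 0.520 to 0.644 CPM in PVASCs. All 3 of the 5 that could be tested were lower in PVASCs and in Ab-ASCs than in Sub-ASCs, and 1 was higher in PVASCs than in Ab-ASCs.

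Markers of other cells moved with the depots as well. The 11 mesothelial genes summed to 3.17 to 3.26 CPM in Sub-ASCs, 127 to 136 CPM in Ab-ASCs and 51.8 to 53.5 CPM in PVASCs, and 9 of the 10 tested were higher in each of these groups than in Sub-ASCs, where Upk1b, Lrrn4 and Muc16 had no read. In PVASCs 2 were higher and 8 lower than in Ab-ASCs. The 6 smooth muscle and pericyte genes summed to 66.0 to 71.3 CPM in Sub-ASCs, 4391 to 5451 CPM in Ab-ASCs and 2739 to 2886 CPM in PVASCs. All 6 were higher in PVASCs than in Sub-ASCs, 5 were higher and 1 lower in Ab-ASCs, and PVASCs had 2 higher and 4 lower than Ab-ASCs. By their sums, both lists were lowest in Sub-ASCs, like Anxa3, F3 and the proliferation genes given below. The 6 endothelial genes summed to 179 to 193 CPM in Sub-ASCs, 63.8 to 65.7 CPM in Ab-ASCs and 753 to 760 CPM in PVASCs. Of these, 5 were higher and 1 lower in PVASCs than in Sub-ASCs, 6 were lower in Ab-ASCs than in Sub-ASCs, and 6 were higher in PVASCs than in Ab-ASCs. Like Cd55 and Icam1, they were lowest in Ab-ASCs. In PVASCs against Sub-ASCs, however, Icam1 was lower (log2 fold change -0.97) and no difference was detected for Cd55 (0.01). The 6 macrophage and leukocyte genes summed to 253 to 258 CPM, 310 to 403 CPM and 299 to 308 CPM in Sub-ASCs, Ab-ASCs and PVASCs, with 2 higher and 4 lower in both groups than in Sub-ASCs, and 1 higher and 2 lower in PVASCs than in Ab-ASCs. The 10 proliferation genes were all higher in PVASCs and Ab-ASCs, with sums of 79.7 to 85.8 CPM in Sub-ASCs, 795 to 886 CPM in Ab-ASCs and 791 to 804 CPM in PVASCs. PVASCs had 2 of them higher and 7 lower than Ab-ASCs. Of the 12 interferon response genes, 6 were higher and 2 lower in PVASCs than in Ab-ASCs. Of the 7 NF-κB feedback genes, 6 were lower in PVASCs than in Sub-ASCs, 4 were higher and 1 lower in Ab-ASCs than in Sub-ASCs, and 7 were lower in PVASCs than in Ab-ASCs. Their part in the differences of the 7 markers was not tested.

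Genes that overlap a marker could share its reads. Dpp4, Cd55 and Icam1 each overlap 1 gene on the opposite strand, and the library kit named in the labels is not stated to keep strand. Anxa3 overlaps 1 gene on its own strand, and none of these genes had more than 22 reads in a library. Their counts do not show whether reads lying in both genes were left out. Pi16, Clec11a and F3 overlap none.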

How the data were processed

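ASCs were sequenced in 9 libraries, 3 per depot, and grouped by the titles given in the labels. The authors deposited raw counts of reads per gene, without normalization or filtering, with the length and position of each gene. The submitters' processing notes list CASAVA 1.8, Bowtie 0.12.2 and featureCounts 1.5.0-p3 and the builds mm8 and mm10, without roles. The strand setting is not given in the sources used here.

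Counts were tested with edgeR 4.0.16 (R 4.3.3), using filterByExpr, TMM scaling and the quasi-likelihood F-test in 1 fit of all 9 libraries without covariates, with Benjamini-Hochberg adjustment over the 16526 genes kept and a threshold of 0.05. The SE was derived from the fold change and its F statistic. The script was tested on simulated data first. CPM used TMM-scaled totals, whereas FPKM was calculated from the listed gene length and the unscaled library total. Errors are SDs over 3 libraries. Replicates differed by more than counting noise, with chi-square values per degree of freedom of at least 2.92.

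The members and lists were chosen with earlier results of these data known. Besides the members and Cd55b, genes were named as the 3 most similar profiles per member and, from each list of further hierarchy genes, as the 2 largest called changes per comparison. Of the similar profiles, 1 each for Cd55 and Icam1 is not reported here. The rule also took the first 2 genes of a marker list. Marker genes without a read in a group, and Ly6a, Thy1, Eng and Col1a1, were named outside it, after their values were seen. Alternatives were DESeq2 1.42.0, RLE size factors, no filter, a minimum of 10 reads per library, fits limited to the groups compared, a replicate block, a log2 cutoff of 1, leaving out each library, TMM-scaled FPKM and a correlation as the measure of likeness. Unscaled totals, and all alternatives for the lists, were added after seeing the data. Plots were made with Python 3.11.15 and matplotlib 3.10.9.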

Additional observations from a re-analysis of the deposited data

How the results depend on the processing

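The numbers of markers called were the same with DESeq2, RLE size factors, either other low-count filter and a fit of the groups compared (6, 6 and 7 for PVASCs against Sub-ASCs, Ab-ASCs against Sub-ASCs and PVASCs against Ab-ASCs), and without each library in turn. With unscaled totals, 5 were called between PVASCs and Ab-ASCs, since Anxa3 (-0.09) and F3 (-0.08) lost their calls. Requiring an at least 2-fold change (log2 of 1 or more) left 3 markers there and 4 and 5 in the comparisons with Sub-ASCs, and it reduced all genes called to 5328, 6241 and 2551, because small changes no longer count. Of 336 recomputed log2 fold changes of single markers, 331 kept their direction and side of the threshold. The exceptions were those 2 and Cd55 for PVASCs against Sub-ASCs, which ranged from -0.0181 to 0.0617 when a library was left out and changed sign without Sub-ASC replicate 1 (-0.0128) or 3 (-0.0181) or PVASC replicate 1 (-0.0151), with no call under any alternative. With the replicate number as a block, 6, 6 and 7 markers and 11458, 12302 and 9183 genes were called. Deviations of same-numbered libraries correlated by -0.05 to 0.10, which gave no sign of pairing. Whether same-numbered libraries shared a mouse cannot be decided from these values, since differences between cultures could hide it. With TMM-scaled totals, 9 of 21 mean FPKM levels moved by more than 1 SD, among them Anxa3 in Ab-ASCs (97.8) and PVASCs (78.4) and F3 in Ab-ASCs (176) and PVASCs (142), and the depot order of each marker was the same. By correlation, the 3 most similar genes were different ones for 6 markers and shared 1 for F3. Of 612 recomputed list counts, 20 moved by over 1.5 times, 12 under the 2-fold requirement, 6 under the 10-read minimum and 1 each with only the groups compared and without Ab-ASC replicate 2. These counts were totals called, so a changed split into higher and lower genes did not register. The splits of the lists between PVASCs and Ab-ASCs can therefore depend on the scaling, as that of the general progenitor markers did. Under the 10-read minimum, most mesothelial and all mature adipocyte genes were not tested. Precision at this depth was lowest for Clec11a.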
